A study of Rattus norvegicus with 12 samples.

Results

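The genes described here are the collagen chains and a set of genes of fibrosis and matrix turnover, measured in renal cortex of transplanted rat kidneys. They were taken as 23 given genes of matrix structure, crosslinking, growth factor signalling, proteolysis and contraction, together with every gene whose single platform symbol had the form of a collagen chain, of which there were 41. The 64 genes stood among 14217 genes with a single symbol on the array, and where a gene had several probe sets the brightest over the 12 arrays stood for it. A probe set is the group of short array probes that reports 1 transcript. The data came from 6 MRP2-deficient grafts (ABCC2-/-) and 6 wild-type grafts, each kidney placed in a wild-type recipient, with all samples labelled male. Strain, age and time after transplantation are not given in the sources used here, nor is the donor of each graft, and p-values therefore describe the scatter among these grafts, which could be technical. The series names the consequences of a kidney-specific loss of MRP2 for renal grafts as its subject, and the comparison made here was MRP2-deficient against wild-type grafts.

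Collagens are triple helices built from alpha chains. Fibrillar chains form the fibres of the interstitium, type IV chains form the sheet-like network of basement membranes under tubules and in glomeruli, and the remaining types decorate fibres, anchor cells or span membranes. In the kidney, scarring is known as an accumulation of fibrillar collagen and fibronectin laid down by activated fibroblasts and pericytes that express smooth muscle actin, and TGF-beta is a main inducer of these genes. Lysyl oxidases crosslink the fibres, matrix metalloproteinases cut them and TIMP proteins inhibit the metalloproteinases.

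The labels were checked first. Abcc2, the gene of MRP2, an apical export pump of the proximal tubule, had a signal of 0.141 ± 0.0594 in deficient grafts and 0.899 ± 0.0746 in wild-type grafts (SD, n = 6 each), and the values of the genotypes did not overlap (log2 difference -2.69, SE 0.22, adjusted p = 8.35e-06). All 10 proximal tubule markers chosen for the tissue were above the level filter. The Gapdh 3′ to 5′ log2 ratio, a control for RNA length, was between 0.359 and 0.449 in deficient replicates 3, 10 and 14 and between 0.710 and 0.947 on the other 9 arrays. These 3 arrays are the deficient arrays listed last in the series. The arrays listed first and last, 3 of each genotype in each set, were also compared in a fit of genotype, array set and their interaction. Among the wild-type grafts the sets differed in 3011 of 18625 probe sets at an adjusted p under 0.05. The set term of this fit does not describe the deficient grafts. Because the sets differed, log2 differences within them are given for the genes described by graft. The labels do not say what separates the sets.

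No collagen or matrix gene passed the test between the genotypes. Of the 64 genes, 46 passed the filter on mean signal and were tested, 25 of them collagen chains. In limma with Benjamini-Hochberg adjustment over 18625 probe sets, 0 of these 46 genes had an adjusted p under 0.05, against 0.0215% of all probe sets, and the lowest adjusted p was 0.606 (Loxl2). At an unadjusted p under 0.05 there were 3 of 46 (6.52%), against 7.98% of all probe sets. Loxl2 and Dcn were the 2 with higher means in deficient grafts, against 3.35% of all probe sets, and Loxl1 was the 1 with a lower mean, against 4.63%. In 0 of 46 genes were the genotypes without overlap, against 0.435% of all probe sets. The fold, deficient over wild type, was between 0.8 and 1.25 in 39 of 46 genes, and the 95% confidence intervals of all 46 folds lay between 0.539 and 2.07. Of the 46 differences 28 (60.9%) were positive, against 41.4% over all 10639 genes tested, and the median log2 difference was 0.039 against -0.041 over all genes. Among the arrays listed first 21 of the 46 were positive (median -0.0087), against 3983 of all 10639 genes (median -0.051). Among those listed last 32 of the 46 were positive (median 0.13), against 4999 of all 10639 genes (median -0.022). The arrays hold bulk tissue, in which fewer cells of a type and less RNA per cell cannot be told apart.

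**Figure D1:**
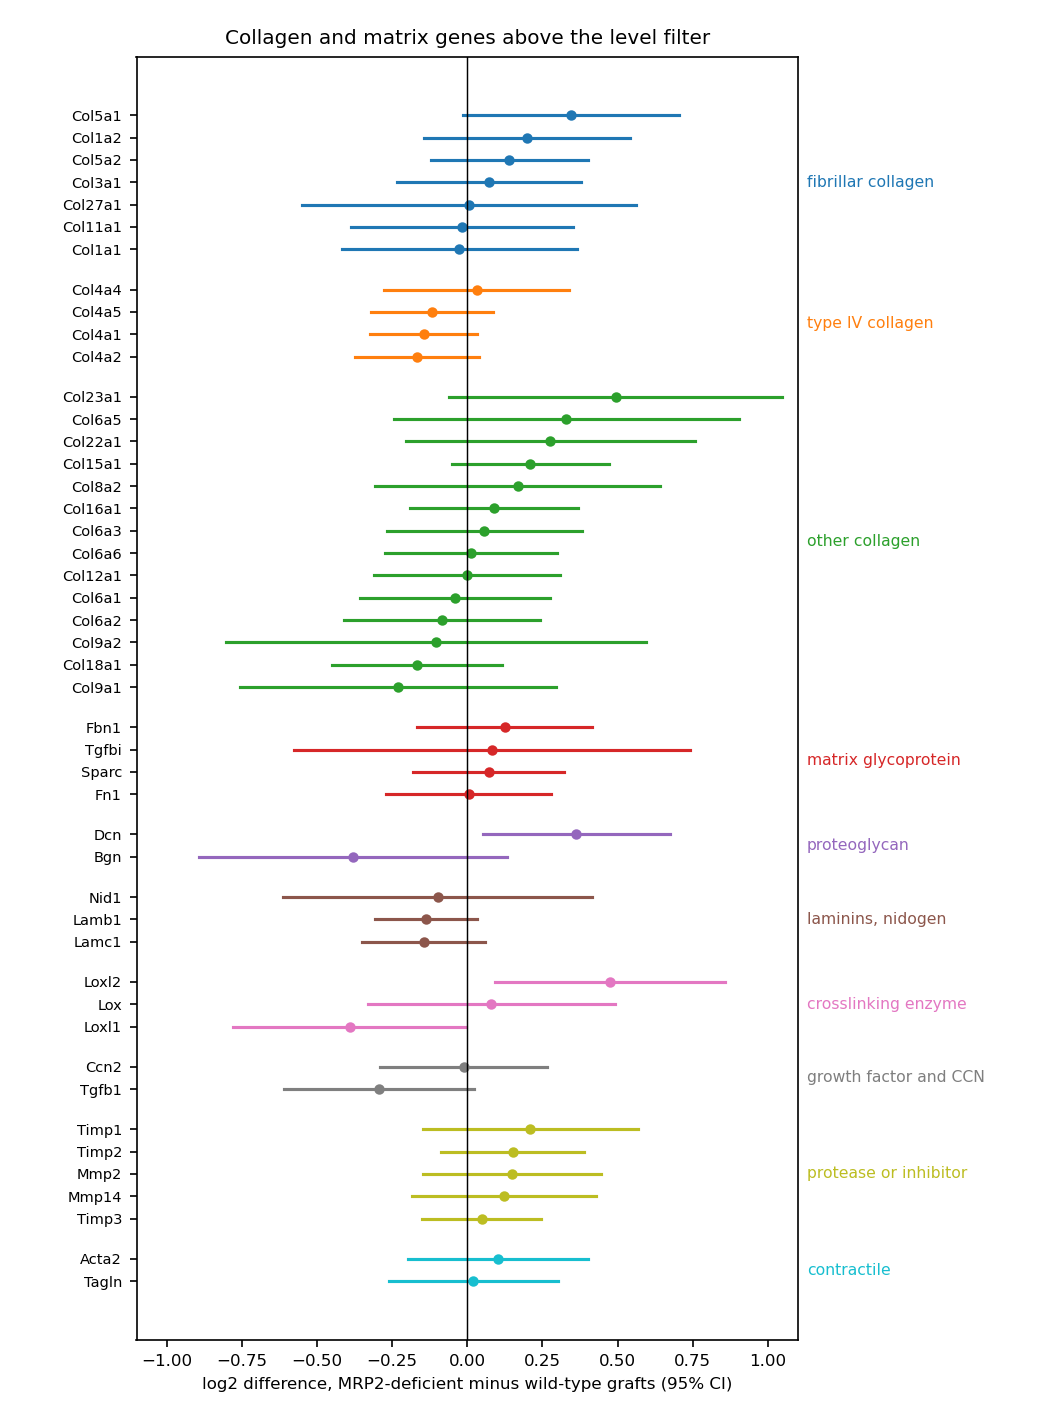
Log2 difference of each of the 46 tested genes, MRP2-deficient minus wild-type grafts (horizontal axis), grouped by role. Points are limma estimates and bars their 95% confidence intervals (6 grafts of each genotype). Most bars cross 0, and the bars of Loxl2 and Dcn (above 0) and Loxl1 (below 0) do not. No gene passed after adjustment over all probe sets.

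No fibrillar chain passed the test, and most fibrillar folds were near 1. Of 11 chains on the array 7 were tested, with 5 positive and 2 negative log2 differences and a median of 0.072. Col1a1, which encodes the main chain of type I collagen, ranged over 0.675 to 1.39 in deficient grafts (median 0.980) and over 0.711 to 1.38 in wild-type grafts (median 1.12). The ranges all but coincided, and the fold was 0.982 (95% confidence interval 0.749 to 1.29). Its log2 difference was -0.32 among the arrays listed first and 0.27 among those listed last. A dimmer probe set of Col1a1 had a log2 difference of 0.31 (SE 0.18) against -0.03 (SE 0.18) for the brightest, and neither passed. Col1a2, the partner chain of the type I helix, ranged over 1.40 to 2.99 (median 1.97) in deficient grafts and over 1.31 to 2.17 (median 1.84) in wild-type grafts, with a log2 difference of 0.20 (SE 0.16). Deficient replicate 3 alone lay above every wild-type graft, and the difference was -0.12 in the first-listed set and 0.52 in the last-listed set. Col3a1, the chain of type III collagen that accompanies type I in the interstitium, ranged over 3.01 to 4.73 (median 4.25) in deficient grafts and over 2.66 to 4.99 (median 4.05) in wild-type grafts, a fold of 1.05 (0.850 to 1.30), with log2 differences of -0.01 in the first-listed and 0.15 in the last-listed set.

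Among the fibrillar chains the lowest p was that of the minor chain Col5a1. Col5a1, a chain of type V collagen, which helps to start type I fibrils, ranged over 0.461 to 0.702 (median 0.624) in deficient grafts and over 0.341 to 0.580 (median 0.486) in wild-type grafts. Of the 6 deficient grafts 5 lay above the wild-type mean, and the log2 difference was 0.34 (SE 0.17, adjusted p = 0.627), with 0.49 in the first-listed and 0.20 in the last-listed set. A dimmer tested probe set of Col5a1 had -0.07 (SE 0.24). Col5a2 had 0.14 (SE 0.12), Col27a1 0.01 (SE 0.26) and Col11a1 -0.02 (SE 0.17). Dimmer tested probe sets had the opposite sign for Col5a2, at -0.04 (SE 0.15), and for Col11a1, at 0.15 (SE 0.29). That of Col1a2 had the same sign as its brightest, at 0.11 (SE 0.18). Within the arrays listed first the median of the 7 chains was -0.036, and within those listed last it was 0.27. None of the 7 passed the test of whether the genotype difference changed between these sets.

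Type IV chains leaned the other way. Of 5 chains on the array 4 were tested, 3 with a negative and 1 with a positive log2 difference, and the median was -0.13 against -0.041 over all genes. Col4a1 and Col4a2 encode the chains present in nearly every basement membrane. RefSeq places their starts head to head, 77 bases apart on opposite strands of chromosome 16 in GRCr8, and their promoter windows of 300 bases around the start share 176 bases. The windows are shown because both chains are transcribed from this one stretch, and that of Col1a2 as a fibrillar chain beside them. Capitals mark the box CCAAT, the TATA motif TATAAA and the GC box GGGCGG, searched on both strands, and no match in these windows overlapped another. The windows are chr16:84885347-84885646 (plus strand) for Col4a1, chr16:84885471-84885770 (minus strand) for Col4a2 and chr4:33518307-33518606 (plus strand) for Col1a2.
Col4a1: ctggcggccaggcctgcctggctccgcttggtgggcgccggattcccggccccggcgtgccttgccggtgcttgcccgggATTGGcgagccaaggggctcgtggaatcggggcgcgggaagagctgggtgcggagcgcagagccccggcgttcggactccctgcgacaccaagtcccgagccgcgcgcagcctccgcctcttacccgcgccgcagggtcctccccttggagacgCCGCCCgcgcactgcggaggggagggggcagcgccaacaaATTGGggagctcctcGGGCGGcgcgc
Col4a2: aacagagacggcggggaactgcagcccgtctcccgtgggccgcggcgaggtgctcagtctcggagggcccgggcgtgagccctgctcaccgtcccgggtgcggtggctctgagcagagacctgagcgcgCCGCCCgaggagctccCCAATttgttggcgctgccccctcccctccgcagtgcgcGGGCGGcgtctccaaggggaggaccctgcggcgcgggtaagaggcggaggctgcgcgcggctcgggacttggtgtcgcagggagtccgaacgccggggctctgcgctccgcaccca
Col1a2: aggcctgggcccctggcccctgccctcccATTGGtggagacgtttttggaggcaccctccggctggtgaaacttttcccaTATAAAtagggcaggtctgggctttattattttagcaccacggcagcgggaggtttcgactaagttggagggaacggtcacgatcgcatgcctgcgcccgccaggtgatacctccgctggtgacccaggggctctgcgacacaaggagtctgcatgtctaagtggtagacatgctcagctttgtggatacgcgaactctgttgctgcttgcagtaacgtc
The Col1a2 window holds 1 CCAAT and 1 TATAAA. The type IV windows hold CCAAT and also GGGCGG, and the letters TATAAA are in neither. Of the 64 genes 47 matched a RefSeq promoter. CCAAT was present in 12 of the 47 (25.5%) and in 37.5% of all 33469 promoter windows of this length. TATAAA was present in 6 (12.8%), against 14.2% of all windows, and GGGCGG in 26 (55.3%), against 33.1%. The 47 genes entered with a single window each. The full set of windows was not reduced by gene or limited to genes on the array. These are matches of letters and not sites of binding.

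Col4a1 ranged over 6.66 to 7.53 (median 7.09) in deficient grafts and over 6.75 to 8.90 (median 7.83) in wild-type grafts. All 6 deficient grafts lay below the wild-type mean, but inside or just under the wild-type range, and the fold was 0.904 (0.799 to 1.02, adjusted p = 0.635). The other tested probe set of Col4a1 had a log2 difference of -0.19 (SE 0.10) against -0.14 (SE 0.08). Col4a2 ranged over 4.28 to 5.21 (median 5.04) in deficient grafts and over 4.89 to 6.77 (median 5.10) in wild-type grafts, a fold of 0.890 (0.771 to 1.03, adjusted p = 0.635). The higher wild-type mean of Col4a2 came from wild-type replicates 7 (6.48) and 8 (6.77), and the other 4 wild-type grafts lay between 4.89 and 5.12. For Col4a1 the highest wild-type grafts were replicates 1, 6 and 9, at 8.90, 8.72 and 8.23, and replicate 4 was the lowest at 6.75. The difference in Col4a1 was -0.26 among the arrays listed first and -0.03 among those listed last, and in Col4a2 it was -0.01 and -0.33. Col4a5, a chain of the mature glomerular basement membrane that is mutated in Alport syndrome, had -0.12 (SE 0.10), and its partner Col4a4 had 0.03 (SE 0.15).

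Basement membrane glycoproteins also had negative differences that did not pass. Lamb1 and Lamc1 encode a beta and a gamma chain of laminin, and Nid1 encodes nidogen, which links laminin to type IV collagen. Lamb1 ranged over 5.18 to 6.92 (median 5.43) in deficient grafts and over 6.14 to 6.55 (median 6.17) in wild-type grafts. The wild-type grafts were close together, 5 of the 6 deficient grafts lay below the wild-type mean, and the log2 difference was -0.14 (SE 0.08, adjusted p = 0.635), with -0.07 in the first-listed and -0.21 in the last-listed set. Lamc1 had -0.14 (SE 0.10), with 0.01 among the arrays listed first and -0.30 among those listed last. Dimmer tested probe sets had -0.02 (SE 0.18) for Lamc1 and -0.17 (SE 0.16) for Nid1. Nid1 ranged over 5.85 to 15.3 (median 8.36) in deficient grafts and over 5.83 to 11.6 (median 10.8) in wild-type grafts. In the deficient grafts Nid1 split by array set: replicates 3, 10 and 14, those with the lowest Gapdh ratio, lay between 5.85 and 6.71, and replicates 5, 9 and 11 between 10.0 and 15.3. The part of RNA length in this was not tested. The log2 difference of Nid1 was 0.24 among the arrays listed first and -0.43 among those listed last. A comparison added after the data were seen left out deficient replicates 3, 10 and 14 and kept all 6 wild-type grafts. In it the log2 difference of Nid1 was 0.44 in place of -0.10, and that of Lamc1 was 0.01.

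**Figure D2:**
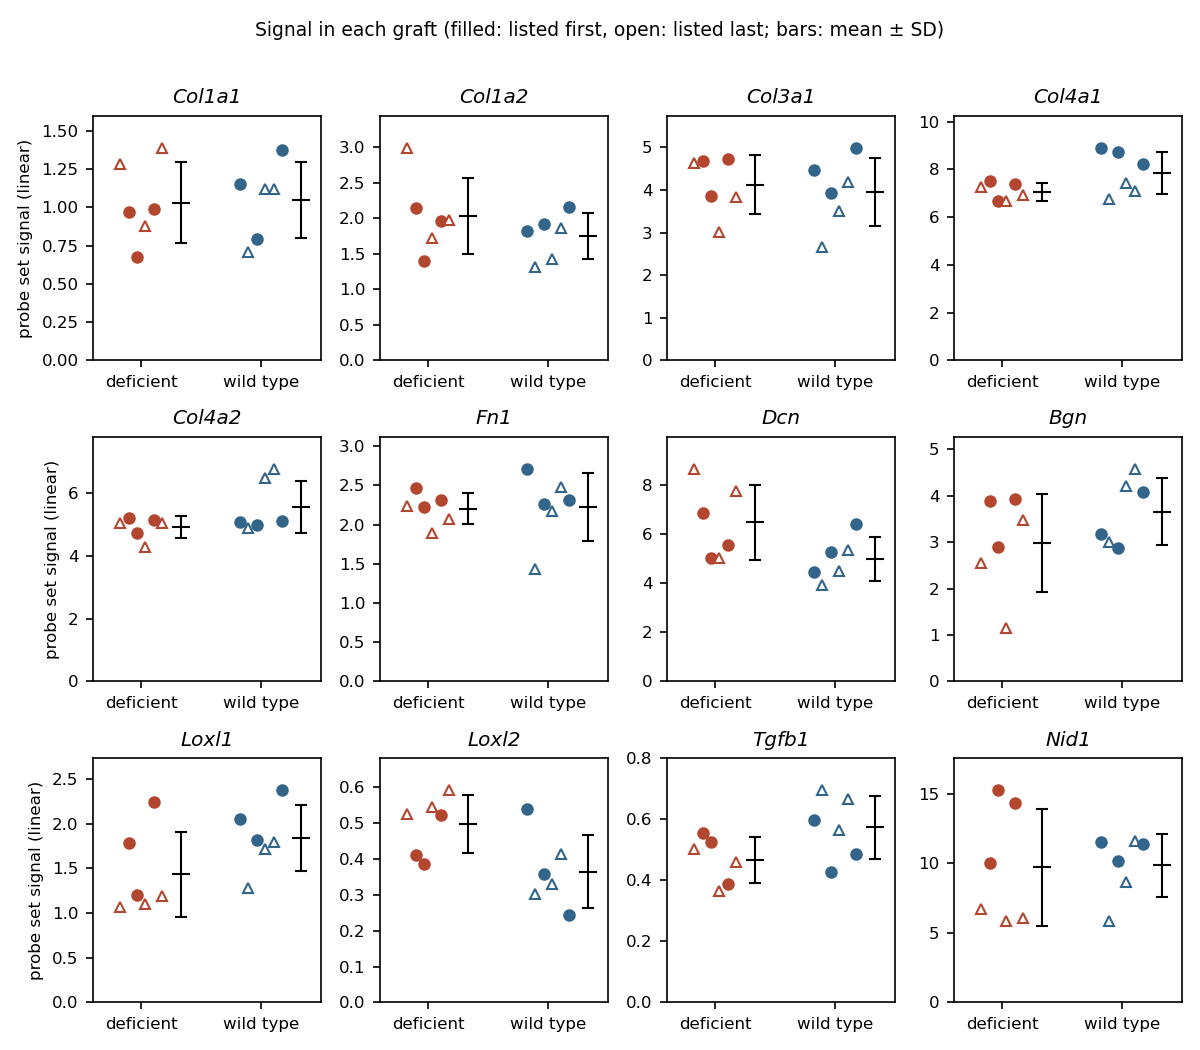
Probe set signal (linear scale from 0, arbitrary units) of 12 genes in each graft, MRP2-deficient in red on the left and wild type in blue on the right of each panel. Filled circles are arrays listed first and open triangles those listed last, and bars are mean ± SD (n = 6). The genotypes overlap in every panel, and the open triangles of the deficient Nid1 values lie below the filled circles.

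The other chains, 25 on the array and 14 tested, had 8 positive and 6 negative differences and a median of 0.035. Type VI collagen forms beaded microfilaments around cells. Its chains Col6a1 and Col6a2 had folds of 0.972 (0.780 to 1.21) and 0.944 (0.753 to 1.18), and Col6a3 had 1.04 (0.830 to 1.30). Col15a1 and Col18a1 encode collagens of basement membrane zones, and Col18a1 is the source of endostatin. Col15a1 ranged over 0.626 to 0.890 (median 0.756) in deficient grafts and over 0.527 to 0.822 (median 0.653) in wild-type grafts, with 5 of 6 deficient grafts above the wild-type mean and a log2 difference of 0.21 (SE 0.12), which was 0.14 in the first-listed and 0.28 in the last-listed set. Col18a1 had -0.17 (SE 0.13), with -0.03 and -0.30 in these sets. The other tested probe set of Col18a1 had -0.02 (SE 0.13). The lowest p of this class was that of Col23a1, a transmembrane collagen, at 0.199 to 0.488 (median 0.357) in deficient grafts and 0.139 to 0.322 (median 0.228) in wild-type grafts. Its log2 difference was 0.49 (SE 0.26, adjusted p = 0.628), with the 3 deficient grafts above every wild-type graft being replicates 3, 10 and 14. It was 0.18 among the arrays listed first and 0.81 among those listed last.

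**Figure D3:**
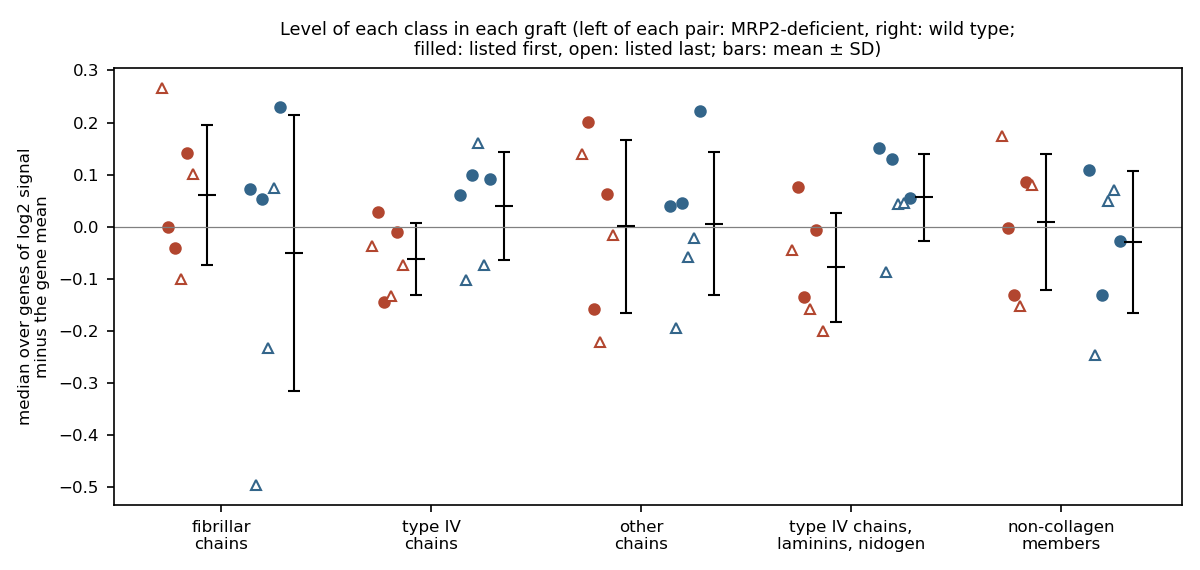
Level of each class in each graft: the median over its tested genes of log2 signal minus the gene's mean over 12 arrays (vertical axis), for MRP2-deficient (red, left of each pair) and wild-type grafts (blue, right). Bars are mean ± SD (n = 6), filled circles arrays listed first and open triangles arrays listed last. The 4 type IV chains with the laminins and nidogen sit between -0.20 and 0.077 in deficient grafts and between -0.087 and 0.15 in wild-type grafts, and the fibrillar chains are lowest in wild-type replicate 4, at -0.50.

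No adhesive glycoprotein passed the test. Fn1, fibronectin, ranged over 1.89 to 2.47 (median 2.23) in deficient grafts and over 1.44 to 2.71 (median 2.29) in wild-type grafts, a fold of 1.00 (0.830 to 1.21), with log2 differences of -0.05 in the first-listed and 0.06 in the last-listed set. The lowest value was that of wild-type replicate 4. Sparc, a collagen-binding protein, had a fold of 1.05 (0.883 to 1.25), and Fbn1, the fibrillin of elastic microfibrils, 1.09 (0.891 to 1.33). Tgfbi, an adhesion protein induced by TGF-beta, ranged over 0.954 to 4.01 (median 1.35) in deficient grafts and over 1.10 to 3.01 (median 1.44) in wild-type grafts. The spread came from deficient replicates 9 and 11 and wild-type replicate 8, and the log2 difference was 0.65 among the arrays listed first and -0.49 among those listed last.

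Neither tested small leucine-rich proteoglycan, a class that coats collagen fibrils, passed the test. Dcn, decorin, ranged over 5.02 to 8.65 (median 6.19) in deficient grafts and over 3.94 to 6.42 (median 4.87) in wild-type grafts. All 6 deficient grafts lay above the wild-type mean, and the fold was 1.29 (1.04 to 1.60, adjusted p = 0.612). The log2 difference of Dcn was 0.12 among the arrays listed first and 0.61 among those listed last. Bgn, biglycan, ranged over 1.14 to 3.94 (median 3.18) in deficient grafts and over 2.88 to 4.58 (median 3.64) in wild-type grafts, a fold of 0.769 (0.539 to 1.10). Deficient replicate 10 was far below the other 5 grafts, and without it the log2 difference was -0.13 in place of -0.38. It was 0.08 among the arrays listed first and -0.84 among those listed last, and 0.0044 with the Gapdh ratio and array set as covariates.

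No crosslinking enzyme passed the test, and their differences had no common direction. Loxl2, which also acts on type IV collagen, ranged over 0.385 to 0.593 (median 0.523) in deficient grafts and over 0.244 to 0.541 (median 0.345) in wild-type grafts. All 6 deficient grafts lay above the wild-type mean, while wild-type replicate 1 exceeded 4 of them. The fold was 1.39 (1.07 to 1.81, adjusted p = 0.606), and the log2 difference was 0.27 among the arrays listed first and 0.68 among those listed last. Loxl1, tied to elastic fibres, ranged over 1.07 to 2.25 (median 1.20) in deficient grafts and over 1.28 to 2.38 (median 1.81) in wild-type grafts, a fold of 0.762 (0.582 to 0.998, adjusted p = 0.624), with log2 differences of -0.29 in the first-listed and -0.49 in the last-listed set. Lox itself had 1.06 (0.795 to 1.41).

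Of the signalling genes, Tgfb1 ranged over 0.366 to 0.556 (median 0.481) in deficient grafts and over 0.428 to 0.697 (median 0.581) in wild-type grafts. All 6 deficient grafts lay below the wild-type mean, and the log2 difference was -0.29 (SE 0.15, adjusted p = 0.628), with -0.04 among the arrays listed first and -0.54 among those listed last. Its target Ctgf, named Ccn2 in the annotation, ranged over 4.05 to 6.25 (median 5.35) in deficient grafts and over 4.29 to 6.32 (median 5.20) in wild-type grafts, a fold of 0.991 (0.818 to 1.20), with log2 differences of -0.08 in the first-listed and 0.06 in the last-listed set.

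The 5 proteases and inhibitors had positive differences, none past the threshold. Timp1, an inhibitor known to rise in scarring kidney, ranged over 0.440 to 0.844 (median 0.623) in deficient grafts and over 0.458 to 0.735 (median 0.506) in wild-type grafts, a log2 difference of 0.21 (SE 0.17), with 0.14 in the first-listed and 0.28 in the last-listed set. Timp2 ranged over 2.64 to 4.36 (median 3.72) in deficient grafts and over 3.02 to 3.52 (median 3.19) in wild-type grafts, with 0.15 (SE 0.11) over all arrays and -0.05 in the first-listed set. Deficient replicates 3, 10 and 14 were the highest for Timp2, and in the arrays listed last alone it was the only tested member past the threshold (log2 difference 0.35, adjusted p = 0.0382), where 6.39% of all probe sets passed and 3.68% were higher. Without these 3 deficient arrays the difference was -0.08. Mmp2, a gelatinase, had 0.15 (SE 0.14) and Mmp14, a membrane protease that activates it, 0.12 (SE 0.15). For Timp3, 2 dimmer probe sets had -0.12 (SE 0.09) and -0.18 (SE 0.11), and the dimmest had 0.03 (SE 0.21). The brightest had 0.05 (SE 0.09).

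Neither contractile gene of smooth muscle and myofibroblasts passed the test. Acta2, smooth muscle actin, ranged over 0.671 to 1.16 (median 0.950) in deficient grafts and over 0.661 to 0.992 (median 0.911) in wild-type grafts, a fold of 1.07 (0.872 to 1.32), with log2 differences of 0.04 in the first-listed and 0.17 in the last-listed set. Tagln, transgelin, had 1.01 (0.835 to 1.23). Of 6 tested smooth muscle markers from another list 5 had a positive and 1 a negative difference, and their summed signal ranged over 7.15 to 8.98 in deficient grafts and over 6.47 to 7.68 in wild-type grafts. The summed signal of 11 fibroblast and pericyte markers ranged over 20.4 to 23.3 in deficient grafts and over 19.7 to 24.0 in wild-type grafts, and that of 8 macrophage markers over 10.6 to 18.0 and 10.8 to 14.8. Of the fibroblast and pericyte markers 5 differences were positive and 6 negative, and of the macrophage markers 7 were positive and 1 negative. Over all 10639 genes tested 41.4% were positive. No marker of these 3 lists passed the threshold or stayed at the floor on every array, and their part in the matrix values was not tested.

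The other 18 genes were under the level filter, so no test stands for them. They were Postn, Lum, the fibrillar chains Col2a1, Col5a3, Col11a2 and Col24a1, the type IV chain Col4a6, and 11 other chains. Col5a3, Col19a1 and Col25a1 were at or under the floor of 0.0694 on all 12 arrays. Postn, periostin, a matrix protein known to appear in injured kidney, was at or under the floor on 3 of 6 deficient and 5 of 6 wild-type arrays, and its highest value was 0.145 in deficient replicate 3. Lum, lumican, had 0.110 ± 0.0383 in deficient grafts and 0.119 ± 0.0207 in wild-type grafts (SD, n = 6 each).

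Over the 12 grafts some matrix genes varied together. Of 11 pairs examined, 1 had an adjusted p under 0.05 in a permutation test. Col3a1 and Fn1 had a Pearson r of 0.85 (permutation p = 0.00063, adjusted p = 0.0069) and a Spearman rho of 0.78 (permutation p = 0.0039, adjusted p = 0.043) over 12 arrays. Without the 2 arrays farthest from the median of Col3a1 r was 0.49, and it was 0.34 among the arrays listed first and 0.87 among those listed last, so the relation rests in large part on those arrays. Col1a1 and Acta2 had r of 0.64 (permutation p = 0.023, adjusted p = 0.066) and rho of 0.65 (permutation p = 0.025, adjusted p = 0.10), with r of 0.62 on trimming and of 0.65 and 0.86 within the sets listed first and last. Col1a1 and Col1a2 had r of 0.64 (permutation p = 0.024, adjusted p = 0.066) and rho of 0.64 (permutation p = 0.028, adjusted p = 0.10), with r of 0.33 on trimming and of 0.73 and 0.68 within the sets. The head-to-head pair Col4a1 and Col4a2 had r of 0.11 (permutation p = 0.76, adjusted p = 0.84) and rho of 0.50 (permutation p = 0.10, adjusted p = 0.22), with r of 0.34 on trimming. Within the array sets r was higher, 0.41 among the arrays listed first and 0.72 among those listed last. Tgfb1 and Col1a1 had r of -0.042 (permutation p = 0.90, adjusted p = 0.90) and rho of -0.063 (permutation p = 0.85, adjusted p = 0.85), with r of 0.12 on trimming and of 0.14 and -0.24 within the sets. The arrays share preparation and scaling, which can also make genes vary together.

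**Figure D4:**
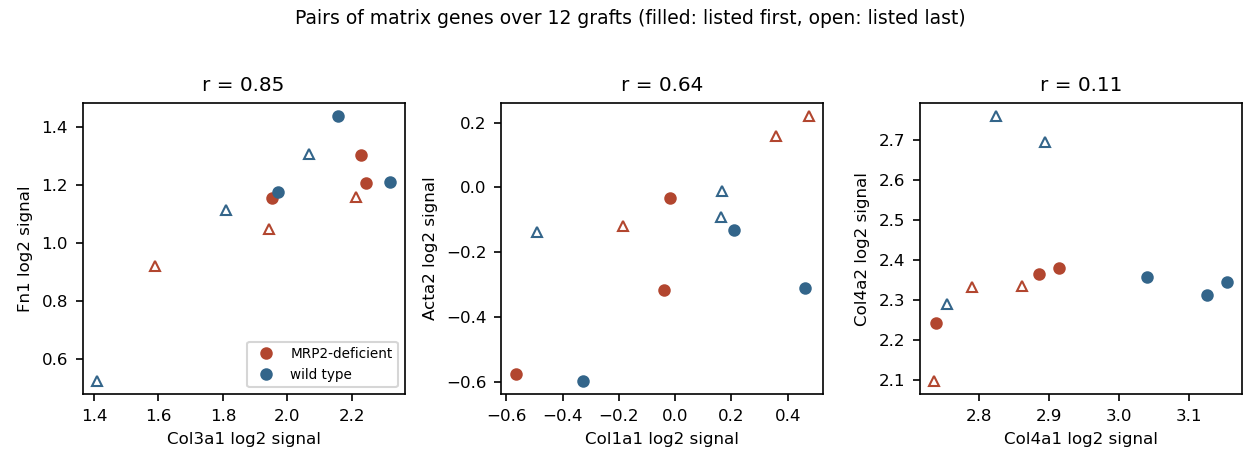
Log2 signal of 3 pairs of matrix genes in each of 12 grafts (red, MRP2-deficient, and blue, wild type; filled circles are arrays listed first, open triangles those listed last). Col3a1 and Fn1 rise together with wild-type replicate 4 lowest in both (r = 0.85), whereas for Col4a1 and Col4a2 the wild-type grafts high in one are not those high in the other (r = 0.11 over all grafts, 0.41 and 0.72 within the arrays listed first and last).

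Genes that make, modify and read the matrix were examined as 5 lists, and 0 of 98 tested entries passed the threshold, against 0.0215% of all probe sets. Over all 10639 genes tested 6238 differences were negative and 4401 positive, with a median of -0.041. Among genes of collagen synthesis and processing 10 of 15 tested had a negative difference (median -0.089), with the lysyl hydroxylase genes Plod2 at -0.49 (SE 0.15) and Plod1 at -0.33 (SE 0.14), both at an adjusted p above 0.60. Of the TGF-beta signalling genes 16 of 24 were negative (median -0.10), with Eng, endoglin, at -0.27 (SE 0.14) and the inhibitory Smad7 at -0.24 (SE 0.14). Other matrix genes had 15 positive and 10 negative differences (median 0.052), with Mgp, matrix Gla protein, at 0.18 (SE 0.10) and the laminin chain gene Lama5 at -0.29 (SE 0.18). Genes of matrix breakdown had 10 positive and 8 negative (median 0.028), with the cathepsin gene Ctsl at 0.25 (SE 0.09) and the macrophage elastase gene Mmp12 at -0.47 (SE 0.18). Of the matrix receptors 12 of 16 were negative (median -0.085), with the integrin genes Itgb1 at -0.28 (SE 0.19) and Itga1 at 0.16 (SE 0.13).

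Among the wild-type grafts, the share of these genes that differed between the array sets was near that of all probe sets. In the fit of genotype, array set and their interaction, the set term describes the wild-type grafts alone. By that term 8 of 46 members (17.4%) differed between the wild-type arrays listed last and first at an adjusted p under 0.05. The share over all probe sets was 16.2%. Of these, 6 were lower in the wild-type arrays listed last (Col4a1, Col4a5, Col5a2, Col8a2, Col12a1 and Ccn2), against 11.2% of all probe sets. Sparc and Timp3 were higher, against 4.99%. The genotype difference had opposite signs in the array sets in 25 of 46 members, a count for which no share over all genes was taken. In the test of whether the genotype difference changed between sets 0 of 46 passed, against 2.54% of all probe sets. At an unadjusted p under 0.05 there were 10 of 46 (21.7%), against 18.2% of all probe sets.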

How the data were processed

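RNA of renal cortex was hybridised to Affymetrix 3′ expression arrays, 1 per graft, per the labels' protocols. The authors deposited 31099 probe set signals per array as intensity values on a linear scale. The submitters' processing notes name MAS5 and GCOS but give no version, and the lowest deposited value was 0.01 (3.56% of values). Genes were named through the platform annotation and the GRCr8 gene table (20826 probe sets with 1 symbol, 436 with several, 9780 not listed). Control probe sets (57) were dropped. Values under the pooled 20th percentile (0.0694) were set to that percentile before taking log2, which understates changes of dim genes. The 18625 probe sets with a mean log2 at or above the 40th percentile (-2.53) were tested with limma 3.58.1 in R 4.3.3 (lmFit, eBayes with trend, genotype as the sole factor, Benjamini-Hochberg). The number of arrays limits the precision. Correlations used 100000 permutations each, 11 pairs computed and 2 not, for lack of a tested member. The fit was tested on simulated data.

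The genes, classes and lists were chosen with earlier results of these data known. Genes were named by a rule: Abcc2 and a set list of genes (Col4a3, on that list, is not analysed here), in each class the lowest p in each direction, and of each list the 2 with the lowest p. Timp3, Col17a1 and others outside it were named after their values were seen. A fold is 2 to the power of the log2 difference. The alternatives changed the floor, filter, normalization, variance model, weights, covariates, array sets and probe set choice, and left out each array.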

Additional observations from a re-analysis of the deposited data

Results flagged for a closer look

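In 4 of 74 groups of 6 grafts examined, 1 graft stood apart from the others by Dixon's test at its 95% critical value of 0.625, a level at which chance alone marks about 1 group in 20. Bgn was lowest in deficient replicate 10, at a signal of 1.14. Fn1 was lowest in wild-type replicate 4, at 1.44. Mmp2 was highest in deficient replicate 3, at 0.704, and Timp1 was highest in wild-type replicate 8, at 0.735.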

How the results depend on the processing

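The count of probe sets past the threshold was 4, between 3 and 5 with 1 array left out, 0 with values below 1 raised to 1, 2 with the filter at the 60th percentile, 112 with array set as a block and 1190 in the arrays listed last alone. The count of members past it was 0, and 1 (Timp2) in the arrays listed last alone; it was 0 in the other 14 settings, with 1 array left out and without deficient replicates 3, 10 and 14. With 1 array left out the median log2 difference ranged over 0.032 to 0.16 for fibrillar chains, -0.17 to -0.094 for type IV chains, -0.026 to 0.098 for other chains and -0.013 to 0.084 for the non-collagen members. In the other settings these ranges were -0.036 to 0.27, -0.14 to -0.070, -0.0038 to 0.12 and 0 to 0.10, in the same order. Of 32 named differences 13 kept their sign in all 12 fits that left out 1 array and in every one of the 15 other settings that tested them. Among these, Col23a1, Col5a1, Loxl2, Mmp2 and Tgfb1 were not tested with the filter at the 60th percentile, and values below 1 raised to 1 gave 0 for dim genes. The correlation of Col4a1 with Col4a2 was -0.20 with genotype means removed, that of Tgfb1 with Col1a1 was 0.050 with arrays centred, and the call for Col3a1 with Fn1 stood in both. The cause of these moves was not tested. No paired analysis was possible because the genotypes share 1 replicate number in the labels. Dim chains near the floor are limited by signal over background.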

Other observations

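Col17a1, a transmembrane collagen of epithelial anchoring, was under the level filter and was chosen here after its values were seen. It had a signal of 0.0719 to 0.291 in deficient grafts and 0.01 to 0.108 in wild-type grafts, at or under the floor on 0 of 6 deficient and 4 of 6 wild-type arrays. In the fit without the filter its log2 difference was 1.38 (SE 0.31, adjusted p = 0.447), and raising low values to the floor understates it. The genotypes overlapped through deficient replicate 3, at 0.0719, and wild-type replicates 1 and 4, at 0.108 and 0.0732.

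Members that lie next to each other among the protein-coding genes of the GRCr8 table formed 6 pairs. Col3a1 and Col5a2 had log2 differences of 0.07 and 0.14, Col6a1 and Col6a2 of -0.04 and -0.08, Col4a1 and Col4a2 of -0.14 and -0.17, and Col6a5 and Col6a6 of 0.33 and 0.01. In the other pairs, Dcn with Lum and Col9a1 with Col19a1, the second gene was under the level filter. No gene of these pairs passed the threshold.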
